A study of Homo sapiens with 12 samples.

Results

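Among the 25268 gene symbols measured in HEK293 cells, 7 genes were examined here because their mRNAs are TOP mRNAs listed outside the main ribosomal protein families: TPT1, NACA, BTF3, NAP1L1, GNB2L1, FAU and NPM1. They were chosen by symbol, each had 1 row in the data, and all 7 were among the 14676 genes that passed the minimum of a mean level of 0.5 FPKM. FPKM gives the sequenced fragments of a gene per kilobase of its transcript, relative to the mapped fragments of the library, so that levels can be set side by side between genes. HEK293 is an established human line from embryonic kidney. Its cells were transfected by lipofection with 2 µg of a plasmid for the RNA-binding protein RBMX with a HIS-HA tag, and control cells received the mock empty vector instead, which the labels also call wild type. Both sets of cells were treated with cycloheximide, which holds ribosomes on the mRNA, and lysed. Lysates were spread on a sucrose gradient, where mRNAs carrying several ribosomes run into the heavy, polysomal fractions. For each vector there were 3 cultures, each with a polysomal library and a total library, the latter pooled from 20% of every gradient fraction. These are 12 libraries in 4 groups of 3, made from 500 ng of RNA each.

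A TOP mRNA starts with a cytosine followed by an unbroken run of pyrimidines, the terminal oligopyrimidine tract. The tract lets the cell hold back or release translation of the whole family together. The kinase complex mTORC1 and the RNA-binding protein LARP1 act on it, and most TOP mRNAs encode ribosomal proteins and translation factors. The 7 genes take several places in and around this machinery. NACA and BTF3 encode the alpha and beta subunits of the nascent polypeptide-associated complex, which meets new proteins as they leave the ribosome. GNB2L1, now named RACK1, encodes a scaffold that sits on the small ribosomal subunit, and FAU encodes a ubiquitin-like protein fused to a ribosomal protein of the small subunit. The word non-ribosomal therefore holds only loosely for these 2 genes. NPM1 encodes a nucleolar protein that takes part in ribosome assembly, NAP1L1 a histone chaperone, and TPT1 the translationally controlled tumour protein, a small abundant cytosolic protein.

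The first bases of the 7 transcripts are shown because they define the family. The 30 bases of each line run 5′ to 3′ on the transcript's strand, with 10 bases before the annotated RefSeq start and 20 bases from it, in build GRCh38.p14. Capitals mark the pyrimidine run that begins at the start.
TPT1 (chr13:45341164-45341193, minus strand): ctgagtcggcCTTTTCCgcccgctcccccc
NACA (chr12:56725280-56725309, minus strand): ctcgctcggtCTTTCTgccgccatcttggt
BTF3 (chr5:73498432-73498461, plus strand): cttccggcctCCCTTTagctgccatcttgc
NAP1L1 (chr12:76084666-76084695, minus strand): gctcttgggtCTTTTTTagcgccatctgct
GNB2L1 (chr5:181243887-181243916, minus strand): gcttttctctCTCTCTTTCactgcaaggcg
FAU (chr11:65122115-65122144, minus strand): tcgcttcttcCTCTTTCTCgactccatctt
NPM1 (chr5:171387839-171387868, plus strand): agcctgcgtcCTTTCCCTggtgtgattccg

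All 7 sequences met the rule used here for a TOP start, a C at the start followed by at least 4 bases that are C or T. The run was 6 bases long in NACA and BTF3, 7 in TPT1 and NAP1L1, 8 in NPM1, and 9 in GNB2L1 and FAU. RefSeq gives NPM1 another start upstream, at chr5:171387106-171387135, where the rule was not met. Of the genes tested, 11206 had a RefSeq start and 809 of these (7.22%) met the rule on the transcript's strand. It was met by 45 of 61 ribosomal protein genes and by 4 of 19 abundant genes of other function. The FPKM values were made on build hg19, so these coordinates belong to RefSeq and not to the expression table.

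The libraries were first checked against their labels. RBMX stood at 87.4 to 148 FPKM in the 6 control libraries and at 1072 to 2073 FPKM in the 6 RBMX libraries, without overlap. The HEK293 markers VIM, KRT8, KRT18, NEFM and PAX2 were measured in every library, at 2.49 FPKM or more. Of the 6 genes listed as absent from the line, PTPRC, ALB, HBG1, ESR1 and CD3E stayed at or under 0.226 FPKM, while COL1A1 reached 3.14 to 8.61 FPKM. Small RNA genes took 40.6 to 72.9% of the summed FPKM of a library. Rank correlations between replicates ran from 0.976 to 0.998, and the lowest belonged to the polysomal library of control culture 3. That culture stood apart for these genes too: its levels of NPM1, NAP1L1 and GNB2L1 were the lowest of the 3 control cultures in both fractions, and those of TPT1 and NACA the highest. The polysomal library of RBMX culture 2 had the lowest of 3 levels for 7 of 7 genes. Fits between groups are given below with and without these 2 cultures where they rest on them.

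The 7 mRNAs were all abundant. GNB2L1 had the highest level in 12 of 12 libraries. In control total RNA it stood at 1827, 1863 and 1398 FPKM, and in control polysomal RNA at 1302, 1396 and 1007 FPKM. In RBMX cells the values were 1611, 1580 and 1753 FPKM in total RNA and 1353, 1228 and 1515 FPKM in polysomal RNA. The 2 fractions did not overlap within either vector.

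NACA came next, at 1005, 997 and 1149 FPKM in control total RNA and at 827, 833 and 948 FPKM in control polysomal RNA. In RBMX cells it stood at 1024, 1053 and 1096 FPKM in total and at 858, 649 and 976 FPKM in polysomal RNA. All 6 polysomal values of NACA lay below all 6 total values. Its partner BTF3 was lower than NACA throughout, at 733, 727 and 793 FPKM in control total RNA and 674, 677 and 677 FPKM in control polysomal RNA. In RBMX cells BTF3 read 699, 725 and 727 FPKM in total and 670, 524 and 736 FPKM in polysomal RNA. The fractions of BTF3 were apart in control cells and overlapped in RBMX cells, where polysomal library 3 was above all 3 total libraries.

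FAU lay close to BTF3, at 696, 641 and 684 FPKM in control total RNA and 596, 616 and 737 FPKM in control polysomal RNA. In RBMX cells the FAU values were 763, 726 and 803 FPKM in total and 728, 560 and 728 FPKM in polysomal RNA. The ranges of FAU in the 2 fractions overlapped within each vector. BTF3 and FAU overlapped in 3 of the 4 groups, control total RNA being the exception. The mean of BTF3 was the higher one in both control groups and that of FAU in both RBMX groups. NPM1 followed with 349, 371 and 248 FPKM in control total RNA and 358, 346 and 224 FPKM in control polysomal RNA. Its RBMX libraries held 331, 364 and 352 FPKM in total and 356, 294 and 357 FPKM in polysomal RNA. Culture 3 was the low one in both fractions of control cells, and the fractions of NPM1 overlapped within each vector.

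TPT1 was the one of the 7 whose level differed most between fractions. Control total RNA held 253, 221 and 291 FPKM and control polysomal RNA 90.5, 89.2 and 119 FPKM. In RBMX cells the levels were 206, 229 and 250 FPKM in total and 101, 71.6 and 101 FPKM in polysomal RNA. The lowest total value was above the highest polysomal value in both vectors together. NAP1L1 was the least abundant of the 7 in total RNA, at 139, 144 and 105 FPKM in control and 104, 113 and 117 FPKM in RBMX cells. Polysomal RNA held 129, 119 and 78.1 FPKM in control and 105, 88.9 and 119 FPKM in RBMX cells. The mean of TPT1 was above that of NAP1L1 in total RNA, without overlap, and just below it in polysomal RNA, where both ranges overlapped. Ranked among 14182 genes other than small RNA genes, TPT1 ran from place 208 to place 1283 over the 12 libraries, NACA only from 39 to 58 and BTF3 from 62 to 84.

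**Figure D1:**
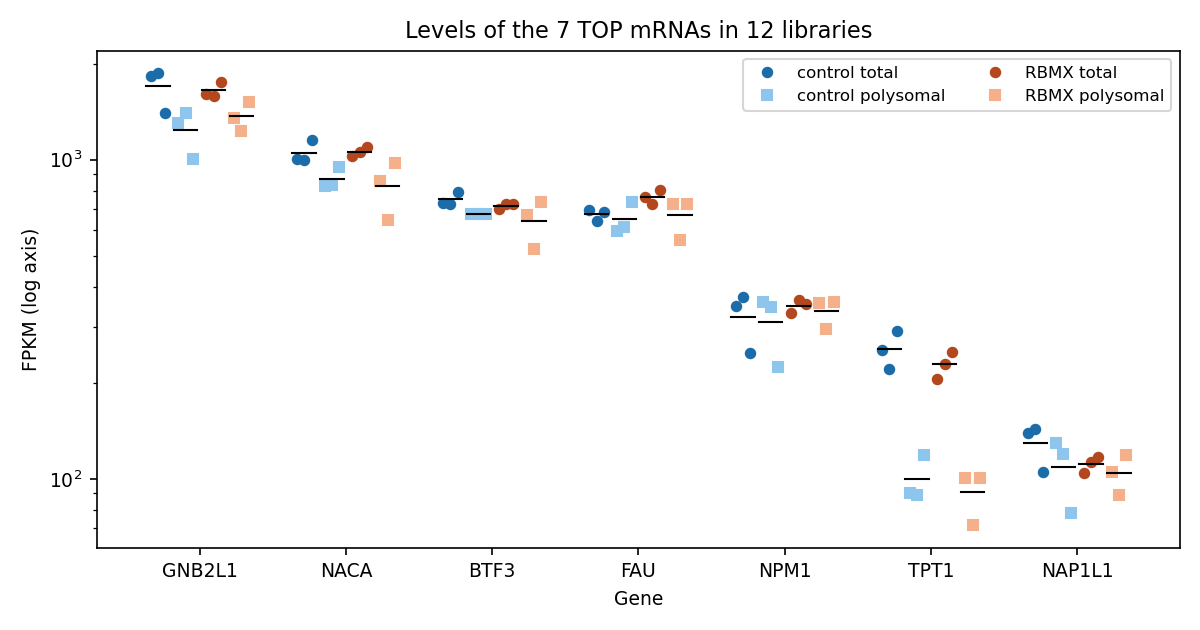
Level of each of the 7 TOP mRNAs in FPKM (log axis), with 1 point per library, 3 libraries in each of the 4 groups and a black line at the group mean. TPT1 stands at 206 to 291 FPKM in total RNA and at 71.6 to 119 FPKM in polysomal RNA, while each other gene stays within a narrower band over both fractions.

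The comparison of polysomal with total RNA asks which share of an mRNA's pool sat in the polysomal fractions, relative to all other mRNAs. FPKM is a share of each library, so a lower polysomal value means a smaller part of polysomal RNA and not a known loss of molecules. In these bulk samples fewer cells with an mRNA and less of it per cell cannot be told apart. Over all 6 cultures TPT1 fell in polysomal RNA to 39.4% of its total level, a log2 change of -1.34 ± 0.11 (SE, adjusted p = 0.000279 by limma over 12 libraries). It was the only one of the 7 genes called, and it was lower in 6 of 6 cultures, at 31.3 to 48.8% of total. The direction and call of TPT1 were kept under each of the other scalings tried. Without control culture 3 its log2 change was -1.35 (adjusted p = 0.000244 by limma), and without RBMX culture 2 it was -1.28 (adjusted p = 0.00401 by limma). Of all genes tested, 8.93% were called in this comparison in either direction.

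GNB2L1 and NACA came next and missed the threshold. GNB2L1 had a polysomal level of 77.5% of total (log2 -0.37, adjusted p = 0.0880 by limma) and NACA one of 80.0% (log2 -0.32, adjusted p = 0.0844 by limma). The next values pair both libraries of a culture, which rests on their coming from 1 gradient and is not settled by the labels. Both genes were lower in 6 of 6 cultures, for which the exact two-sided sign-flip test gives its smallest p, 0.03125. With the culture as a block the adjusted p by limma was 0.0248 for GNB2L1 and 0.0404 for NACA. In that fit 3 of the 7 genes were called, and 3512 of all 14676 genes, against 1310 without the block. Without control culture 3 GNB2L1 passed (adjusted p = 0.0304 by limma) and NACA did not (0.0572), where 3337 of all genes were called. Without RBMX culture 2 the log2 change was -0.37 for GNB2L1 (adjusted p = 0.200 by limma) and -0.25 for NACA (0.172). Of 18 fits that left out 1 library or 1 culture, each gene was called in 1, NACA without the polysomal library of control culture 3 (adjusted p = 0.0478 by limma), and the highest adjusted p was 0.234 for GNB2L1 and 0.198 for NACA. Under quantile normalization both changes turned positive, to 0.42 for GNB2L1 and 0.26 for NACA, and neither was called.

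The other 4 genes differed less between fractions, and none of them was called. The polysomal level was 87.9% of total for NAP1L1, 89.5% for BTF3, 91.6% for FAU and 95.6% for NPM1. On the log2 scale the 95% intervals were -0.48 to 0.11 for NAP1L1, -0.35 to 0.03 for BTF3, -0.33 to 0.08 for FAU and -0.37 to 0.23 for NPM1, and each included 0. BTF3 and FAU were lower in 5 of 6 cultures, NAP1L1 in 4 and NPM1 in 3, with exact sign-flip p-values of 0.0625, 0.125, 0.125 and 0.406 in that order. A gene was lower in 6 of 6 cultures in 16.5% of all genes tested, against 3 of the 7 genes here. Quantile normalization turned BTF3 (0.30), FAU (0.33) and NPM1 (0.19) positive as well, and left NAP1L1 negative. Rescaling each library to its genes other than small RNA genes shifted the median of all genes upward, by 0.12 in RBMX cells, and moved NPM1 to 0.055 over both vectors, the other 6 genes staying negative.

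**Figure D2:**
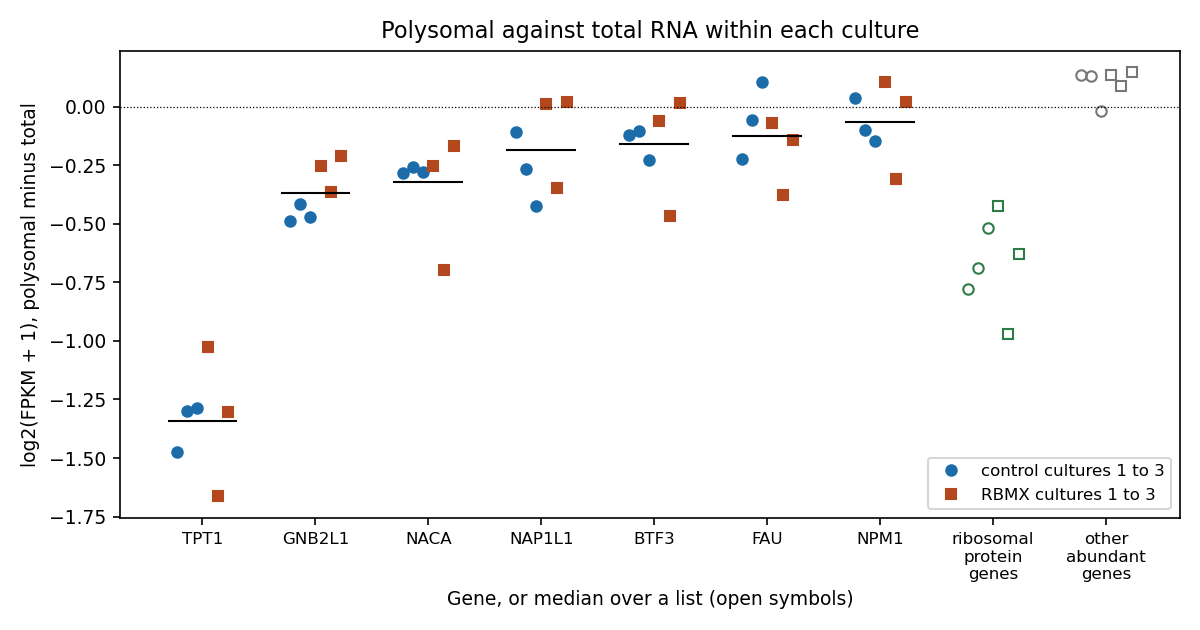
Difference of log2(FPKM + 1) between the polysomal and the total library of each of the 6 cultures (circles control, squares RBMX), with a black line at the mean of each gene. Open symbols give the median over 77 ribosomal protein genes and over 20 other abundant genes. TPT1 lies between -1.66 and -1.03 in the 6 cultures and the other 6 genes above -0.70.

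Within each vector the picture rested on 6 libraries and passed the threshold less often. In control cells TPT1 had a log2 difference of -1.35 (95% interval -1.76 to -0.95, adjusted p = 0.174 by limma), and 0 of the 7 genes were called, where 0.0818% of all genes were. Only TPT1 had an unadjusted p under 0.05, as 1180 of all genes did. With all 12 libraries in 1 fit TPT1 passed at an adjusted p of 0.0113 by limma, and without control culture 3 at 0.0351. Between the control fractions 4 of the 7 genes did not overlap and were lower in polysomal RNA, TPT1, NACA, BTF3 and GNB2L1, as were 7.31% of all genes. Quantile normalization turned the mean differences of NACA, BTF3 and GNB2L1 positive here, and those of NACA and GNB2L1 in RBMX cells as well.

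In RBMX cells TPT1 differed by -1.33 (95% interval -1.73 to -0.93) and was called, with an adjusted p of 0.0376 by limma. The share called over all genes was 1.34%. This call was lost with the culture as a block (adjusted p = 0.118 by limma) and with no filter on low values (0.0945). It was also lost in 8 of the 9 fits that left out 1 library or 1 culture, the exception being the polysomal library of culture 2, and the change stayed between -1.48 and -1.17 in all 9. TPT1, NACA and GNB2L1 did not overlap between the RBMX fractions and were lower in polysomal RNA, against 16.2% of all genes. An exact permutation test of 3 against 3 libraries cannot go below 0.1, the value it gave for each gene that did not overlap.

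Beside the ribosomal protein genes, the largest TOP family, TPT1 lay at the low end and the other 6 genes at the high end in the fit over both vectors. All 77 ribosomal protein genes tested were lower in polysomal RNA over both vectors, 63 of them called where 8.93% of all genes were, with a median log2 change of -0.67. Their range went from -1.49 for RPS12, of the small subunit, to -0.20 for RPL3, of the large subunit. Under quantile normalization 57 of the 77 stayed negative, with a median of -0.31. TPT1 had 73 of the 77 above it. GNB2L1 had 71 of the 77 below it, NACA 73, and NAP1L1, BTF3, FAU and NPM1 all 77. FAU, although part of its product is a ribosomal protein, thus had a value above those of all 77. Within single cultures the places varied more. In control culture 3 only 45 of the 77 were below GNB2L1 and 50 below NAP1L1, and in RBMX culture 1 62 were below GNB2L1 and 61 below NACA. FAU had 75 to 77 of them below it in every culture.

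The same comparison within each culture hardly depends on a factor by which a whole library is scaled. It was added after the values had been seen. TPT1 was below the median ribosomal protein gene in 6 of 6 cultures, with a log2 difference of -0.67 ± 0.06 (SD, n = 6, exact sign-flip p = 0.03125, the smallest possible). The other 6 genes were above that median in 6 of 6 cultures, by 0.30 for GNB2L1, 0.35 for NACA, 0.48 for NAP1L1, 0.51 for BTF3, 0.54 for FAU and 0.60 for NPM1 (exact sign-flip p = 0.03125 for each). Single ribosomal protein genes can also keep to the same side of their own median in every culture, and their share was not counted. These p-values therefore do not show that a gene differs from the family. Under quantile normalization the order against the median held in 6 of 6 cultures for 6 of the 7 genes and in 5 of 6 for NAP1L1. In the values as deposited TPT1 differed from that median by nearly the same amount in each culture, -0.77 to -0.60, although the median itself ran from -0.97 to -0.42. Under quantile normalization the difference was wider spread, from -1.11 to -0.80.

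Against 20 abundant genes of other function, such as glycolytic enzymes and cytoskeletal proteins, the 7 genes lay lower. None of the 20 was called over both vectors as deposited, 2 to 4 were called as higher under the other scalings, where 9.7 to 19.7% of all genes were called in either direction, and their deposited median log2 change was 0.11, from -0.01 for YWHAZ, a signalling adaptor, to 0.18 for CFL1, an actin-severing protein. Measured from this median within cultures, the mean log2 difference was -1.45 for TPT1, -0.47 for GNB2L1, -0.43 for NACA, -0.29 for NAP1L1, -0.26 for BTF3 and -0.17 for NPM1, each negative in 6 of 6 cultures. For FAU it was -0.23, negative in 5 of 6 cultures. Under quantile normalization GNB2L1 and BTF3 also stood below it in only 5 of 6 cultures. The deposited median of the 20 genes, 0.11, was above the upper quartile of all genes tested, 0.09. A place below it was therefore common among all genes, and the share of genes below it in each culture was not counted.

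**Figure D3:**
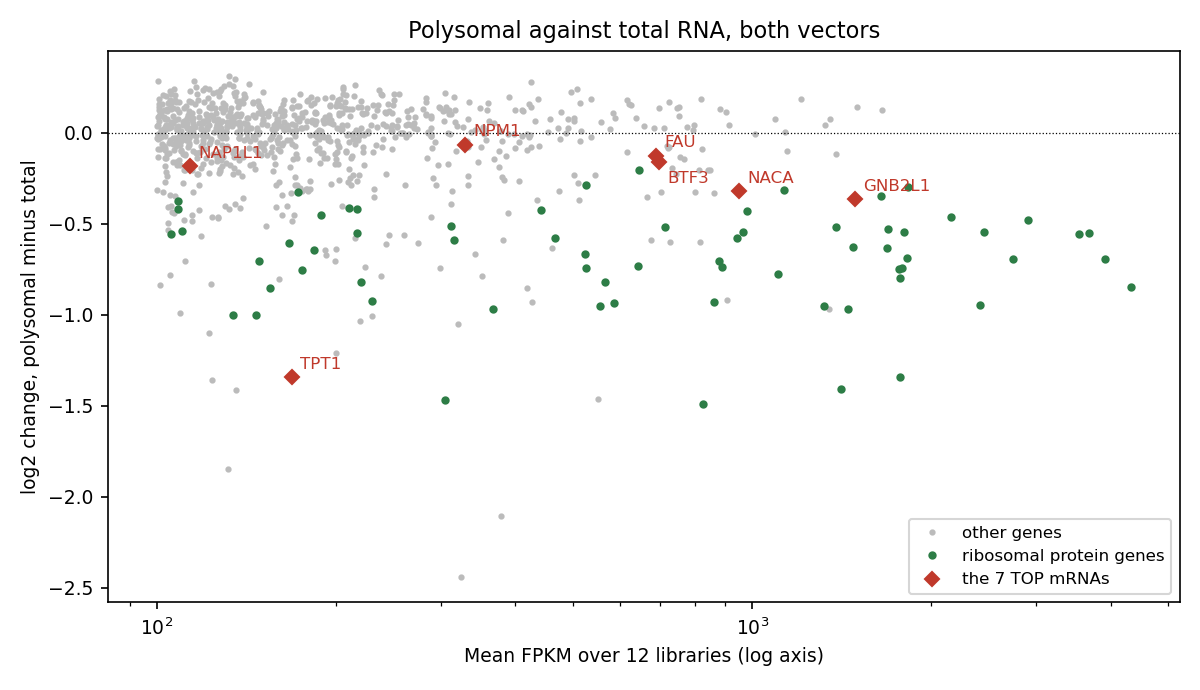
Log2 change from total to polysomal RNA over both vectors against mean FPKM over 12 libraries (log axis), for the 948 genes with a mean of at least 100 FPKM. The 7 TOP mRNAs are diamonds and ribosomal protein genes dark points. TPT1 lies at -1.34, with 10 of the 948 genes below it, and the other 6 TOP mRNAs lie above most ribosomal protein genes.

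Translation factors with TOP mRNAs stood between these groups in the values as deposited. All 10 such genes were lower in polysomal RNA as deposited, with a median log2 change of -0.47. Of the 10, 7 were called lower and 0 higher, also under each other scaling. Of all genes 8.93% were called as deposited and 9.7 to 19.7% under the other scalings. Under quantile normalization the median of the factors was -0.40, below the -0.31 of the ribosomal protein genes. PABPC1, the cytoplasmic poly(A)-binding protein, had the largest change (-0.83) and EEF1D, a subunit of elongation factor 1, the smallest (-0.05, not called). Of the 948 genes with a mean of at least 100 FPKM, 139 had a TOP start by the rule above and a median log2 change of -0.16, against 0.01 for 662 without one. When the ribosomal protein genes, the translation factors and the 7 genes were left out, 91 genes with a TOP start remained, with a median of -0.01. The quartiles of the 139 genes were -0.53 and 0.02, and 6 of the 7 genes lay between them, while only 3 of the 139 lay below TPT1.

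The comparison of RBMX with control cells asks whether the overexpressed protein moved these mRNAs in total or in polysomal RNA. None of the 7 genes was called in either fraction. In total RNA 0.164% of all genes were called (24 genes), and an unadjusted p under 0.05 was found for 2756 of all genes and 0 of the 7. FAU had the largest positive difference, with RBMX values 13.3% above control (log2 0.18, 95% interval -0.04 to 0.40, adjusted p = 0.334 by limma). Every RBMX total library of FAU was above every control total library. NAP1L1 had the largest negative difference (log2 -0.20, 95% interval -0.54 to 0.14), and its groups overlapped. BTF3 did not overlap either and was lower in RBMX cells, but by only -0.07 on the log2 scale (95% interval -0.28 to 0.14). Groups without overlap, in either direction, made up 27.3% of all genes, against 2 of the 7 here. TPT1 (-0.16), GNB2L1 (-0.03), NACA (0.01) and NPM1 (0.13) overlapped between vectors. Under quantile normalization FAU turned to -0.11, NACA to -0.38 and NPM1 to -0.05.

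In polysomal RNA the intervals were wider and no gene of the 7 had groups apart, compared with 22.5% of all genes. The share of all genes called was 0.0477% (7 genes), and 1715 had an unadjusted p under 0.05, none of them among the 7. GNB2L1 had a log2 difference of 0.15 (95% interval -0.42 to 0.73) and TPT1 one of -0.13 (95% interval -0.60 to 0.33). NPM1 stood at 0.14, FAU at 0.04, NAP1L1 at -0.04, and NACA and BTF3 at -0.09 each. Without control culture 3 and RBMX culture 2 the signs of TPT1 (0.16), NACA (0.14) and BTF3 (0.06) turned, and that of NPM1 in total RNA (-0.07). The interval for polysomal TPT1 still held levels from 65.8 to 126% of control.

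**Figure D4:**
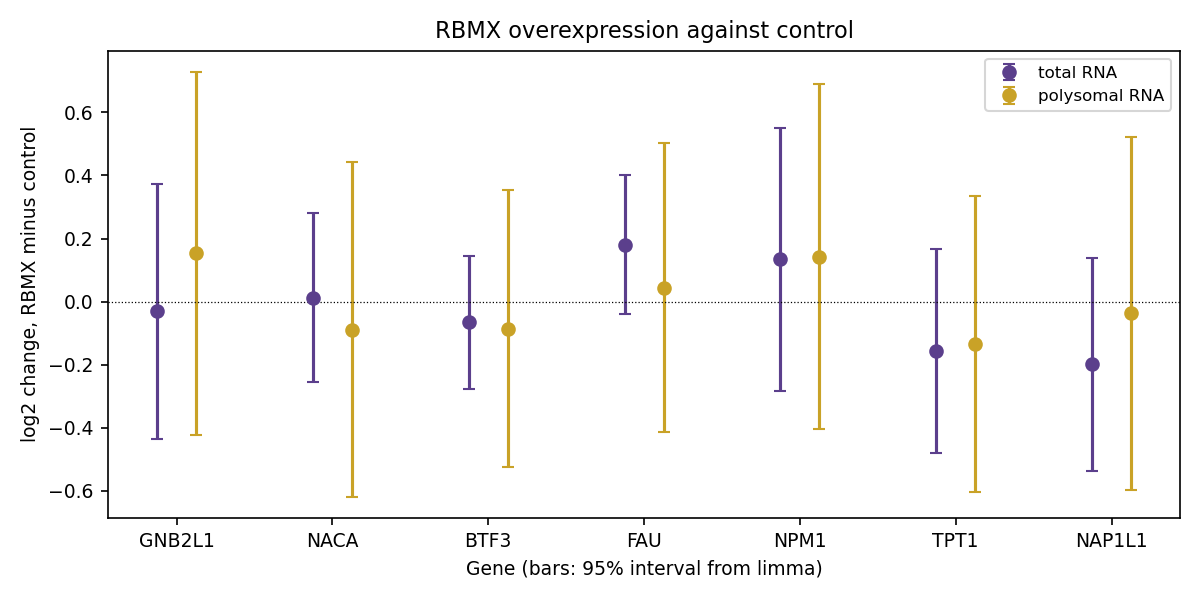
Log2 difference between RBMX and control cells for each of the 7 TOP mRNAs in total and in polysomal RNA, with 95% intervals from limma over 6 libraries each. All 14 intervals include 0, and those of total RNA are the narrower ones.

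The difference of the RBMX effect between the fractions was tested on its own, as an interaction over 12 libraries. None of the 7 genes was called (adjusted p = 1.00 for each by limma, unadjusted p of 0.486 or more), and 0.0204% of all genes were (3 genes, with 88 at an unadjusted p under 0.05). GNB2L1 had the largest estimate, 0.18 (95% interval -0.38 to 0.75). Its polysomal level was 71.3, 74.9 and 72.0% of total in control cultures 1 to 3 and 84.0, 77.8 and 86.4% in RBMX cultures 1 to 3, and these did not overlap. It was the only one of the 7 genes whose culture values were apart between vectors, as were those of 6.98% of all genes in either direction. The exact permutation test over the 6 cultures gave p = 0.1 for GNB2L1, the smallest 3 against 3 allow, and 0.3 to 1.0 for the other 6 genes. For TPT1 the percentages were 35.7, 40.4 and 40.8% in control and 48.8, 31.3 and 40.3% in RBMX cultures, the RBMX values lying on both sides of the control ones. NAP1L1 had an estimate of 0.16, FAU one of -0.14 and NACA one of -0.10, with intervals that included 0.

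The 7 genes did not vary as 1 group over the 12 libraries. Correlations of log2(FPKM + 1) are given here as a description, since the libraries share cultures, fractions and scaling. NACA and BTF3, the partners of 1 complex, had the highest, 0.93. TPT1 and NACA followed with 0.87, and NAP1L1 correlated with GNB2L1 (0.81) and with NPM1 (0.78). TPT1, NACA, BTF3 and FAU showed almost no relation to NPM1, from -0.02 to 0.10. Both libraries of control culture 3, which are among the 12, had the same split. NPM1, NAP1L1 and GNB2L1 were low in them and TPT1 and NACA high, as the map of deviations by library shows. Correlations without this culture were not computed, so how far the split rests on it is not known.

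**Figure D5:**
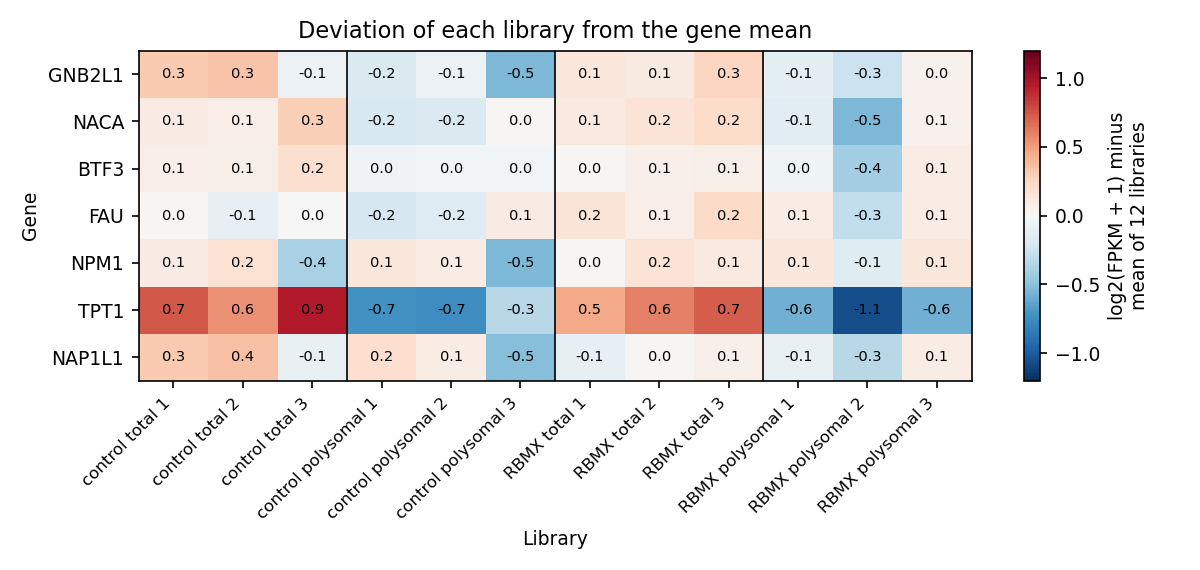
Deviation of log2(FPKM + 1) of each library from the gene's mean over 12 libraries, with genes in rows and libraries in columns, grouped by vector and fraction. NPM1, NAP1L1 and GNB2L1 are low in control polysomal library 3, and all 7 genes are lowest of 3 in RBMX polysomal library 2.

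The genes with the most similar course over the 12 libraries were found among 7627 genes with a mean of at least 10 FPKM. For TPT1 they were 3 ribosomal protein genes, RPS12 (r = 0.992), RPS13 (0.990) and RPLP1 (0.988). For NACA they were NACA2 (0.979), RPL37A (0.977) and RPS24 (0.971). No ribosomal protein gene was among the 3 closest to any other of the 7. NPM1 was closest to NEK2 (0.983), a mitotic kinase, VRK1 (0.982), another kinase, and EIF2S1 (0.981), a subunit of an initiation factor. NAP1L1 was closest to ME1 (0.978), a malic enzyme, and GNB2L1 to ARPC1A (0.936), a subunit of an actin-nucleating complex. BTF3 was closest to C1orf109 (0.962) and FAU to MOB2 (0.907). For the mean of the 7 it was DAP3 (0.951), a protein of mitochondrial ribosomes. Control culture 3, where NPM1, NAP1L1 and GNB2L1 were low, is among the 12 libraries, and a ranking without it was not computed.

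Copies and relatives of the 7 genes were less abundant than the gene they resemble, by differing amounts. NAP1L4, a histone chaperone like NAP1L1, came closest, with a mean of 74.8 FPKM over 12 libraries against 114 FPKM for NAP1L1, and 80.3 against 104 FPKM in RBMX polysomal RNA. NPM3, of the NPM1 family, averaged 82.7 FPKM against 329 FPKM for NPM1. NACA2, an intronless relative whose sequence is close to NACA, averaged 35.8 FPKM and had a log2 change of -0.28 in polysomal RNA over both vectors (adjusted p = 0.0856 by limma). It was lower in 6 of 6 cultures, as were 16.5% of all genes tested. Reads could be split between NACA and NACA2, so their likeness is uncertain. NACAP1 stood at 2.48 to 4.73 FPKM, BTF3P11 at 0.0317 FPKM or less, and BTF3L4 at 19.6 to 30.8 FPKM. The antisense gene TPT1-AS1 was listed at 3.35 to 4.49 FPKM and did not share the course of TPT1, with the highest mean in RBMX polysomal RNA. Whether reads were assigned by strand is not given in the sources used here. Of 9 relatives and partners tested, 0 were called between fractions over both vectors, where 8.93% of all genes were. The most positive log2 changes were those of the nucleolar proteins NCL (0.28) and UBTF (0.26), and the most negative ones those of NACA2 and NPM3 (-0.12).

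Of 19 genes tested that act on TOP mRNAs or belong to the mTORC1 pathway, 1 fell and 1 rose over both vectors, where 8.93% of all genes were called. Their median log2 change was -0.04, with 11 of the 19 negative. After rescaling over genes other than small RNA genes 1 fell and 4 rose, where 19.7% of all genes were called. The median was then 0.08, with 4 of the 19 negative, and that of all genes 0.10. RPS6KB2, a kinase downstream of mTORC1, fell by 0.47 on the log2 scale (adjusted p = 0.0213 by limma). TSC1, an inhibitor of mTORC1 named here after its values were seen, rose by 0.23 (adjusted p = 0.0326 by limma). RPTOR, a subunit of mTORC1, had the most positive log2 change (0.28, adjusted p = 0.422 by limma). MTOR, the kinase itself, had one of 0.27 (adjusted p = 0.0576 by limma) and LARP1, named for its role and not its rank, one of 0.22 (adjusted p = 0.121 by limma). Both were higher in polysomal RNA in 6 of 6 cultures, as were 4 of the 19 genes in all and 2346 of the 14676 genes tested. As many of the 19, 4, were lower in 6 of 6 cultures, as were 2415 of the genes tested. Between vectors LARP1 differed by -0.12 on the log2 scale in total RNA, and in polysomal RNA by -0.0011. None of the 19 was called between vectors in either fraction.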

How the data were processed

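The authors deposited FPKM values for 25268 gene symbols in 12 libraries, and the columns name vector, fraction and replicate. The submitters' processing notes list CASAVA 1.8, TopHat2 2.0.13, Cufflinks 2.2.1, Cuffnorm and build hg19, whereas the paper's methods describe counts on another build. Fragment numbers per library are unknown, and no count test was run. The 14676 genes with a mean of at least 0.5 FPKM were compared as log2(FPKM + 1) with limma 3.58.1 (R 4.3.3, lmFit and eBayes with trend), Benjamini-Hochberg adjusted over all of them, threshold 0.05. Fold changes on this scale understate those of low genes. The 6 comparisons were polysomal against total RNA in each vector and in both, RBMX against control in each fraction, and the interaction. Single genes were also tested by exact permutation or sign flips.

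The cultures are described as biological replicates. In fits without a block the p-values measure only the spread between libraries. Those libraries were counted as independent even where both libraries of a culture were used. Total RNA was pooled from gradient fractions by the extraction protocol, which would pair both libraries of a culture, but the treatment notes mention 2 dishes for the extractions. Culture ratios, sign flips and the culture block assume the pairing. Across genes, which are not independent replicates, the departures of both libraries of a culture from their group means had a Pearson r of 0.606, 0.686 and 0.836 for control cultures 1 to 3, and of 0.223, 0.0199 and 0.655 for those with RBMX. The fit with the culture as a block is given where it changed a call.

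The 7 genes, the other gene lists and the tests were chosen with earlier results of these data known. The comparison with list medians within cultures was added after seeing the values. From each other list the genes named have the largest changes in each direction, with LARP1, TSC1 and NAP1L4 as exceptions. Genes alike in course were ranked by Pearson's r. The fits were tested on simulated data. Alternatives were a pseudocount of 0.1, no filter, quantile normalization (also over genes other than small RNA genes, added after seeing the data), rescaling over genes other than small RNA genes, replicate blocks, all libraries in 1 fit, and libraries or, added after seeing the data, cultures left out. Starts came from RefSeq (GRCh38.p14), and GNB2L1 was matched through its synonym RACK1.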

Additional observations from a re-analysis of the deposited data

How the results depend on the processing

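The number of fragments behind each FPKM value is unknown, so counting error could not be separated from the spread between cultures, and 3 libraries a group leave wide intervals. Recomputed under the alternatives, the 42 values of the 7 genes gave 756 further values, of which 642 kept direction and side of the threshold. Of the others 10 lost a call, 6 gained one and 98 changed sign, and no value that changed sign was called in either fit. TPT1 kept its sign between fractions throughout. The cause of the changes was not tested.

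Quantile normalization turned the log2 difference between fractions positive for most genes. In control cells it gave 0.15 for NACA, 0.17 for BTF3, 0.20 for GNB2L1, 0.25 for FAU and 0.075 for NPM1. In RBMX cells it gave 0.37 for NACA, 0.43 for BTF3, 0.0054 for NAP1L1, 0.64 for GNB2L1, 0.40 for FAU and 0.30 for NPM1, with 70 genes called in all. Over both vectors it gave 0.26 for NACA, 0.30 for BTF3, 0.42 for GNB2L1, 0.33 for FAU and 0.19 for NPM1. Between vectors it turned NACA (-0.38), FAU (-0.11) and NPM1 (-0.054) in total RNA and GNB2L1 (-0.0029) in polysomal RNA, and in the interaction NACA (0.22), BTF3 (0.26) and FAU (0.15).

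Quantile normalization over genes other than small RNA genes, added after seeing the data, brought these values closer to 0. It gave 0.027 for NACA and 0.088 for FAU in control cells. In RBMX cells it gave 0.0012 for NACA, 0.073 for BTF3, 0.24 for GNB2L1, 0.058 for FAU and 0.11 for NPM1. Over both vectors the values were 0.014 for NACA, 0.025 for BTF3, 0.11 for GNB2L1, 0.073 for FAU and 0.032 for NPM1. NACA in total RNA became -0.097 and BTF3 in the interaction 0.097. It called 7 genes between fractions in control cells, 402 in RBMX cells, 2 between vectors in polysomal RNA and 0 in the interaction by limma, where 88 had an unadjusted p under 0.05 in the values as deposited.

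Rescaling over genes other than small RNA genes turned FAU (0.039) and NPM1 (0.027) in control cells, NAP1L1 (0.038) and NPM1 (0.083) in RBMX cells and NPM1 (0.055) over both vectors. It also turned NACA in total RNA (-0.031) and BTF3 in the interaction (0.028). It called 60 genes in RBMX cells and 2891 over both vectors.

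With no filter TPT1 lost its call in RBMX cells, leaving 0 of the 7 genes, and 53 genes were called there, 73 between vectors in total RNA and 5 in the interaction. With all 12 libraries in 1 fit 1 of the 7 genes, TPT1, was called in control cells, and 41 genes in all, against 21 in RBMX cells, and between vectors 60 in total and 22 in polysomal RNA. With the fractions taken as paired, the culture as a replicate block called 3 of the 7 genes over both vectors and 0 in RBMX cells. Over all genes it called 3512 over both vectors, 4 in RBMX cells, 6 in control cells and 5 in the interaction. It changed no other call of the 7 genes. Replicate numbers were not taken to pair the vectors. The deviations of same-numbered libraries correlated from -0.172 to 0.339, which cannot settle whether these cultures were handled together. With the number as a block 13 genes were called in total and 3 in polysomal RNA, none of the 7 among them.

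Leaving out libraries or cultures in turn gave 12 to 199 genes called between fractions in control cells (0 to 1 of the 7), 10 to 42 in RBMX cells (0 to 1) and 153 to 3337 over both vectors (1 to 2). The highest of the first and the last came without control culture 3, and the lowest of the last without control culture 1. Between vectors 19 to 178 genes were called in total RNA, 9 to 126 in polysomal RNA and 3 to 7 in the interaction, the highest in total and in polysomal RNA without the respective library of RBMX culture 3. Signs changed within these ranges of log2 values. Between fractions they were -0.15 to 0.025 for FAU and -0.25 to 0.15 for NPM1 in control cells, -0.20 to 0.015 for NAP1L1 and -0.14 to 0.062 for NPM1 in RBMX cells, and -0.14 to 0.031 for NPM1 over both. Between vectors in total RNA they were -0.024 to 0.081 for NACA, -0.16 to 0.043 for GNB2L1 and -0.075 to 0.25 for NPM1. For the polysomal libraries the ranges were -0.22 to 0.16 for TPT1, -0.22 to 0.14 for NACA, -0.19 to 0.056 for BTF3, -0.26 to 0.10 for NAP1L1, -0.019 to 0.26 for FAU and -0.074 to 0.26 for NPM1. In the interaction they were -0.13 to 0.19 for TPT1, -0.23 to 0.065 for NACA, -0.12 to 0.13 for BTF3, -0.058 to 0.30 for NAP1L1 and -0.21 to 0.19 for NPM1.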
